A study of Mus musculus with 6 samples.

Results

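Fos, Fosb, Jun, Junb, Egr1, Ier2, Atf3, Nr4a1, Nr4a2 and Nr4a3 are immediate early genes, transcribed soon after a cell is stimulated. They were followed in lungs of BALB/c mice with and without hydrogen in their air. The 10 genes were chosen by name, with earlier results of these data known. Every probe set that the platform annotation pairs with exactly 1 of these symbols was taken, which gave 17 of 45037 probe sets. Of the 10 genes, 7 had a single probe set, Jun had 2, Nr4a3 had 3 and Nr4a2 had 5. The mice were males, 10 weeks old. The control group (3 arrays) lived in normal air, and the hydrogen group (3 arrays) breathed air with 2% molecular hydrogen over 3 weeks. No genotype or transgene is given for either group. Lung RNA was measured on oligonucleotide arrays, and all values are log2 signals that the authors had normalised with RMA. No label says whether each array holds 1 animal, so p-values measure only the spread between these samples, and their small number limits precision.

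The products of these genes are transcription factors, apart from Ier2, whose product is a small nuclear protein. Fos and Jun proteins pair through leucine zippers to form AP-1, which binds DNA and is itself raised by growth factors, stress and cell injury. Transcription of the family is switched on without new protein synthesis, by factors already present in the cell. These include serum response factor and CREB, which are activated through MAP kinases and cyclic AMP. Egr1 is a zinc finger factor of the same early wave, and Atf3 is a stress-induced relative of CREB. Nr4a1, Nr4a2 and Nr4a3 encode orphan nuclear receptors that act mainly through their amount and can bind DNA alone. Those of Nr4a1 and Nr4a2 also bind it with retinoid X receptors. In the lung, these genes are known to answer inflammation, stretch, hypoxia and handling of the tissue.

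Jun fell in the hydrogen group on both of its probe sets, and Nr4a2 gave opposite results on different probe sets. Fos, Egr1, Ier2 and Nr4a1 spread widely within both groups and did not pass the test. In all, 4 of the 17 probe sets rose with hydrogen, 4 fell and 9 did not pass, taking as passed an adjusted p below 0.05 in limma (Benjamini-Hochberg, 45037 probe sets). The background was large: 47.1% of all probe sets passed, 24.3% upward and 22.8% downward. With each array centred on its median the split was 6377 higher against 14571 lower, in place of 10956 against 10257. The share of the 17 was therefore near that of the array as a whole. The same 8 probe sets were those whose groups did not overlap, 4 in each direction, against 57.3% of all probe sets without overlap (30.9% higher, 26.4% lower). The median difference was 0.18 over the 17 probe sets and 0.02 over all probe sets. The median absolute difference was 0.33 over the 17 and 0.18 over all.

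**Figure D1:**
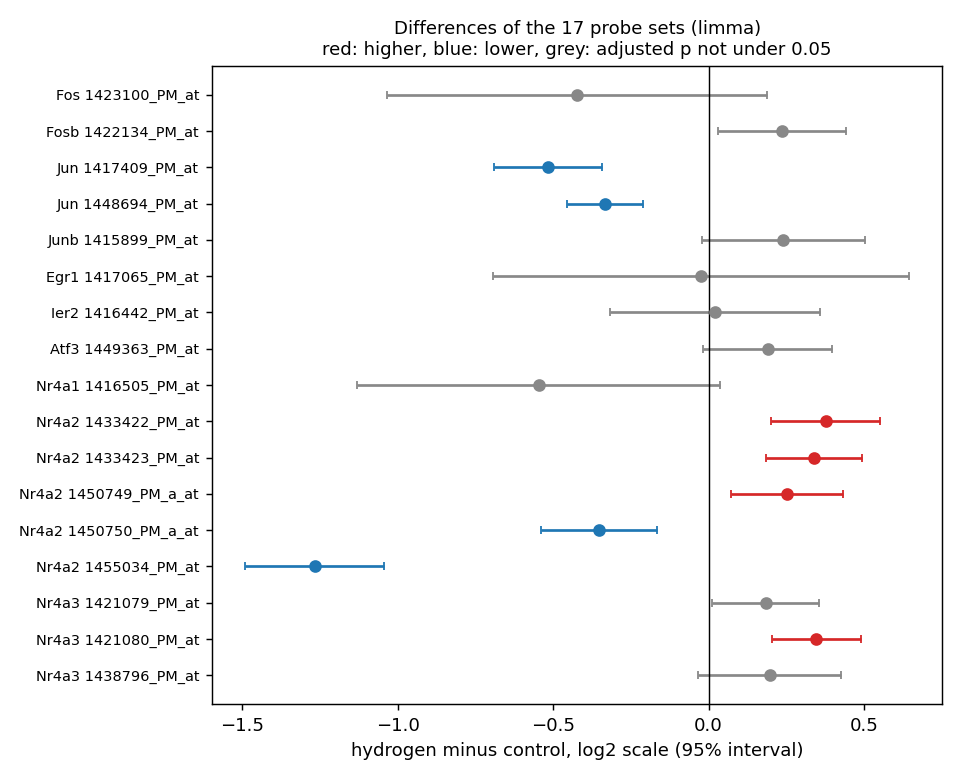
Hydrogen minus control on the log2 scale for each of the 17 probe sets (points) with 95% intervals from limma (bars). Red points passed the test upward, blue points downward, and grey points had an adjusted p of 0.05 or more. The Nr4a2 probe set 1455034_PM_at at -1.27 lies apart from the rest, and the intervals of Fos, Egr1 and Nr4a1 are the widest.

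The promoters of 8 of the 10 genes are in the RefSeq table used here (build GRCm38.p6). Egr1 and Ier2 have no entry in it. The 250 bases before the annotated start are shown, 5′ to 3′ on the gene's strand, for Fos and Nr4a1, whose values followed the same order of arrays, for Nr4a2, whose probe sets disagreed, and for Jun, which fell. Capitals mark TGACG, the first 5 bases of the cyclic AMP response element, or its reverse complement CGTCA, and the TATA box letters TATAAA or TTTATA. The stretches are chr12:85473640-85473889, plus strand for Fos, chr15:101266596-101266845, plus strand for Nr4a1, chr2:57124004-57124253, minus strand for Nr4a2 and chr4:95052223-95052472, minus strand for Jun.
Fos: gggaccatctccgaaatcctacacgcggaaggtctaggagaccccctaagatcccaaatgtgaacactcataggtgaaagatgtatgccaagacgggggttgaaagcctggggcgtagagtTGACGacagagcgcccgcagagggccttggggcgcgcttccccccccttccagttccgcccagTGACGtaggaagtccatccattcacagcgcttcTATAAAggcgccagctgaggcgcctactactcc
Nr4a1: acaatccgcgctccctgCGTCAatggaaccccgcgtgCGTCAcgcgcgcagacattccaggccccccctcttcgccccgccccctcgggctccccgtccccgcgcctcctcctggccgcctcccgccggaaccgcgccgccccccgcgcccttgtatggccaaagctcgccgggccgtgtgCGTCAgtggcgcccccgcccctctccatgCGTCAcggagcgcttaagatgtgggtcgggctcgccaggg
Nr4a2: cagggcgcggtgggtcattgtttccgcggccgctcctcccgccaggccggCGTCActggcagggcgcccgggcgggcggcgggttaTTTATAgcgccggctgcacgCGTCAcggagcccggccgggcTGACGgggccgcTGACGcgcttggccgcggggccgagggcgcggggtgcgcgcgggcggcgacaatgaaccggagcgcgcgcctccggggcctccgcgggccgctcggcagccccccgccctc
Jun: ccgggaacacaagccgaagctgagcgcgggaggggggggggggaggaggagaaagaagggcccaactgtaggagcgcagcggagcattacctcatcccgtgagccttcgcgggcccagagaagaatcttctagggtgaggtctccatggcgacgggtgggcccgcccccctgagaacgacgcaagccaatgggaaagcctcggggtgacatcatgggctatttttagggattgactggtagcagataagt
TGACG was found on either strand in 7 of the 8 promoters (Fos, Fosb, Junb, Atf3, Nr4a1, Nr4a2 and Nr4a3) and in 17.8% of all 32851 promoter windows of the same length. Nr4a1, Nr4a2 and Nr4a3 held 4 matches each and Fos held 2. The match nearest to the start of Fos began 66 bases before it, and the TATA box letters began 33 bases before it. The letters TGACG were not in the Jun window. The full element TGACGTCA (1.55% of all windows), the AP-1 site TGANTCA (6.75%), the serum response element (1.47%) and the NR4A monomer site AAAGGTCA (1.34%) were in none of the 8 windows. The EGR site GCGNGGGCG (4.70%) was in those of Fosb, Nr4a1 and Nr4a2, and TATAAA (12.4%) in those of Fos and Nr4a2. All were searched on both strands. A match of letters is a description and shows no binding. Bases outside these windows were not searched, so a site further from the start would be missed.

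Among the AP-1 genes, Jun, whose product is a partner of the Fos proteins, was lower in every hydrogen array. On probe set 1417409_PM_at the controls had log2 values of 9.81, 9.75 and 9.96 and the hydrogen arrays 9.39, 9.21 and 9.37 (replicates 1, 2 and 3). On probe set 1448694_PM_at the controls had 9.24, 9.26 and 9.17 and the hydrogen arrays 8.90, 8.87 and 8.90. All hydrogen values lay below all control values on both. Jun fell by 0.52 on the first (SE 0.08, limma adjusted p = 0.00131), from 9.84 ± 0.11 to 9.32 ± 0.10 (SD, n = 3), which is 1.43-fold. On the second it fell by 0.33 (SE 0.05, limma adjusted p = 0.00178). Both passed in each alternative setting that tested them. On the second, repeated quantile normalisation gave -0.17 and cyclic loess -0.17, the first being -0.39 and -0.38.

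Fos, the partner that forms AP-1 only with Jun proteins, did not pass the test. Its controls had 7.82, 8.31 and 8.65 and its hydrogen arrays 8.24, 7.26 and 8.01. The groups overlapped: only hydrogen replicate 2 lay below all controls, and control replicate 1 lay below 2 of the 3 hydrogen arrays. The difference was -0.42 with a 95% interval from -1.03 to 0.19 (limma adjusted p = 0.221), so that neither a fall of 1 log2 unit nor a small increase lies outside the interval. Without hydrogen replicate 2 the difference was -0.14, without control replicate 3 it was -0.23, and without control replicate 1 it was -0.64. Repeated quantile normalisation gave -0.21 and cyclic loess -0.23.

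The probe sets of Fosb, Junb and Atf3 were dim, near or below the median probe set of 4.80. Fosb, a relative of Fos, had 3.67, 3.79 and 3.95 in controls and 3.93, 4.01 and 4.18 in hydrogen arrays. The groups overlapped through control replicate 3 and hydrogen replicate 1, and the difference of 0.24 did not pass (limma adjusted p = 0.0586). Junb, which pairs with Fos proteins as Jun does, had 4.71, 4.64 and 4.96 in controls and 5.14, 4.78 and 5.11 in hydrogen arrays, a difference of 0.24 (limma adjusted p = 0.117). Hydrogen replicate 2 lay within the range of the controls. Atf3 had 4.87, 4.81 and 4.93 in controls and 5.14, 5.19 and 4.85 in hydrogen arrays, a difference of 0.19 (limma adjusted p = 0.117). Here hydrogen replicate 3 was the one within the control range, and without it Atf3 had 0.29 and passed (limma adjusted p = 0.0108). Without control replicate 3, Fosb (0.31) and Junb (0.34) passed (limma adjusted p = 0.0254 and 0.0444). Junb also passed without hydrogen replicate 2 (0.36, adjusted p = 0.0297 in limma), and Fosb without hydrogen replicate 1 (0.29, adjusted p = 0.0494 in limma) and with a trend and robust prior variance (adjusted p = 0.0356 in limma). Rescaling made these differences smaller, and none passed. Median centring, repeated quantile normalisation and cyclic loess gave 0.15, 0.12 and 0.12 for Fosb. They gave 0.15, 0.17 and 0.13 for Junb, and 0.10, 0.13 and 0.093 for Atf3. Direction followed signal level over the whole array. Array medians were 4.75 to 4.76 in controls and 4.84 to 4.85 in hydrogen arrays, and the SD over probe sets was 1.90 to 1.92 in controls and 1.80 to 1.81 in hydrogen arrays. The part of this shift in the calls of single probe sets was not tested beyond the rescaled values given here. Of the probe sets at or below the median level, 32.0% were higher and 7.31% lower. Of those above it, 16.7% were higher and 38.2% lower. Of the 17 probe sets, 5 were at or below the median level, where 2 rose and 1 fell, and 12 were above it, where 2 rose and 3 fell.

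**Figure D2:**
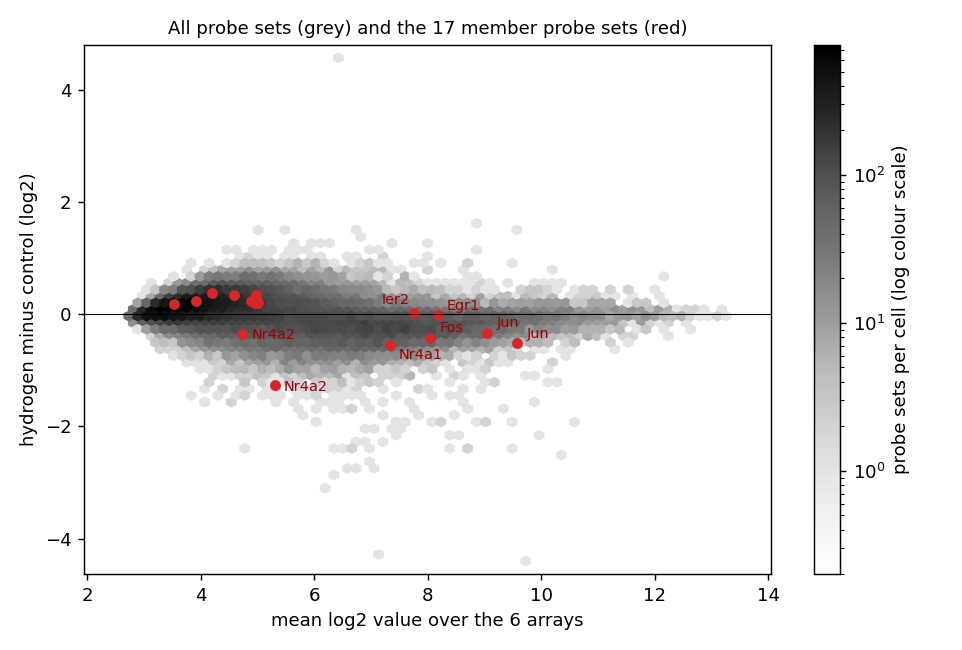
Hydrogen minus control (log2) against the mean log2 value over the 6 arrays, for all 45037 probe sets (grey, darker where more probe sets lie) and for the 17 probe sets of the immediate early genes (red). The red points at low levels lie above 0 apart from Nr4a2 at -0.35 and -1.27, and the points at high levels lie near or below 0.

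Egr1, the zinc finger factor, had a difference near 0 with a wide spread in both groups. The controls had 7.71, 8.13 and 8.74 and the hydrogen arrays 8.67, 7.65 and 8.19. The lowest and highest values of the groups nearly coincided. The difference was -0.02 with a 95% interval from -0.69 to 0.65 (limma adjusted p = 0.955), and its sign turned with the scaling (0.18 with repeated quantile normalisation, 0.17 with cyclic loess). The interval is too wide to show that the groups were alike. Ier2, the small nuclear protein gene, had 7.55, 7.61 and 8.08 in controls and 7.89, 7.54 and 7.87 in hydrogen arrays. Its difference was 0.02 with an interval from -0.32 to 0.36 (limma adjusted p = 0.923), or -0.07 with arrays centred on their medians.

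Nr4a1, a receptor gene induced by growth factor and antigen receptor signals, had 7.08, 7.66 and 8.10 in controls and 7.35, 6.65 and 7.20 in hydrogen arrays. Control replicate 1 lay within the range of the hydrogen arrays, and the other controls lay above all of them. The difference was -0.55 with a 95% interval from -1.13 to 0.04 (SE 0.25, limma adjusted p = 0.109). Without control replicate 1 it was -0.81 and passed (limma adjusted p = 0.0225). Without control replicate 3 it was -0.30, and without hydrogen replicate 2 it was -0.34. Repeated quantile normalisation gave -0.32 and cyclic loess -0.35, which did not pass either.

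**Figure D3:**
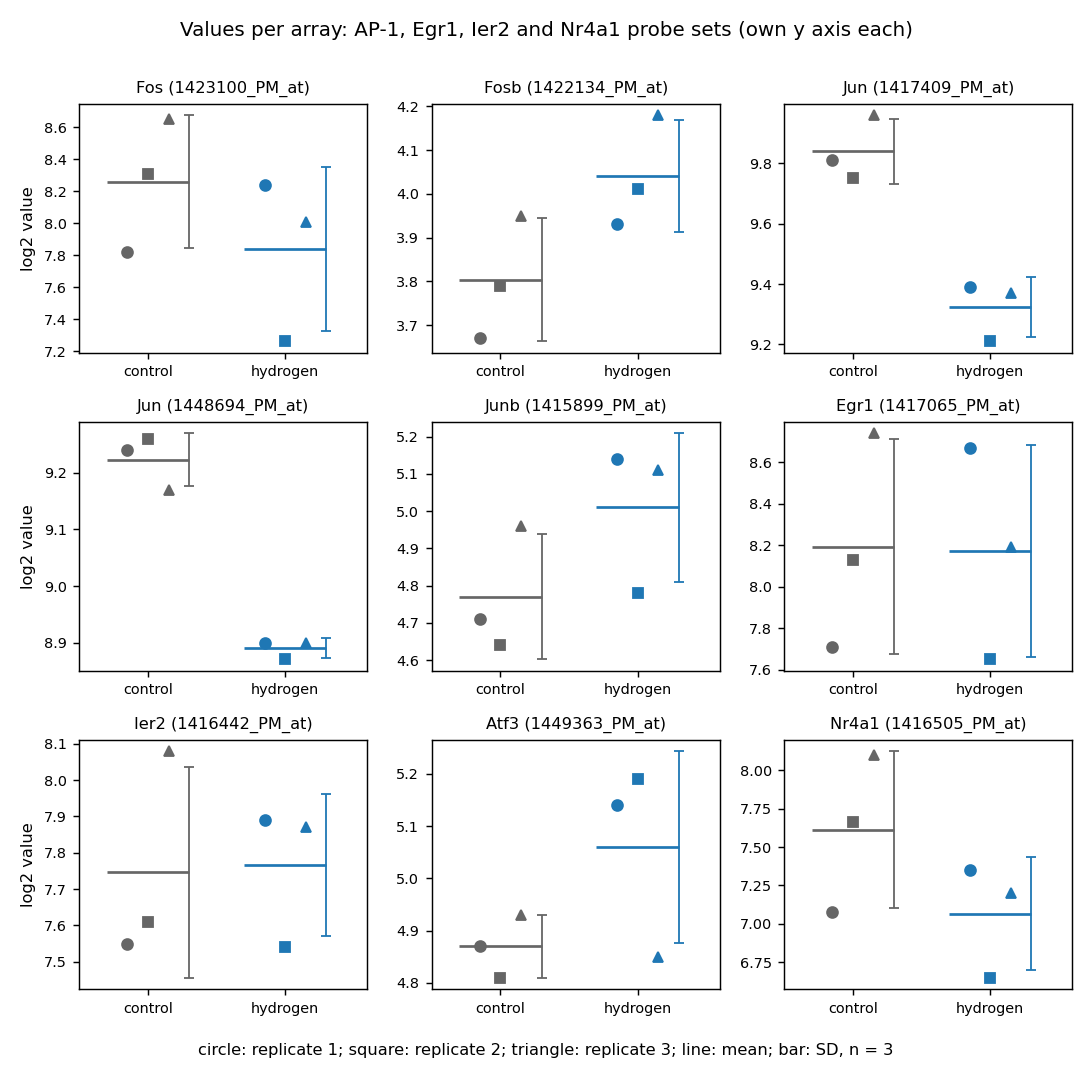
Log2 values of each array for the 9 probe sets of Fos, Fosb, Jun, Junb, Egr1, Ier2, Atf3 and Nr4a1, in controls (grey) and hydrogen arrays (blue), with the group mean (line) and SD (bar, n = 3); each panel has its own y axis. The groups are apart only for the Jun probe sets, and control replicate 3 (triangle) is the highest control in every panel except that of Jun 1448694_PM_at.

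Nr4a2, a receptor gene related to Nr4a1, was measured by 5 probe sets, of which 2 fell and 3 rose. The probe set 1455034_PM_at had 5.90, 5.81 and 6.11 in controls and 4.71, 4.51 and 4.80 in hydrogen arrays. Every hydrogen value lay more than 1 log2 unit below every control, and the change of the means was from 5.94 ± 0.15 to 4.67 ± 0.15 (SD, n = 3). This was a fall by 1.27 (SE 0.10, limma adjusted p = 0.000234), or 2.41-fold, the 117th lowest difference of the 45037 probe sets. It was -1.36 to -1.18 over the alternatives, with adjusted p = 2.64e-05 to 0.00198 in limma. The hydrogen values were at or below the median probe set, so low signal limits how far down this probe set can read. The probe set 1450750_PM_a_at also fell, from 5.01, 4.74 and 4.99 in controls to 4.50, 4.55 and 4.63 in hydrogen arrays (difference -0.35, SE 0.08, limma adjusted p = 0.00866). Its groups did not overlap, and it passed in each alternative that kept it.

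The other 3 Nr4a2 probe sets rose by less. On 1433422_PM_at the controls had 3.95, 3.96 and 4.11 and the hydrogen arrays 4.52, 4.33 and 4.30, a difference of 0.38 (SE 0.08, limma adjusted p = 0.00512). On 1433423_PM_at they had 4.34, 4.53 and 4.40 against 4.80, 4.69 and 4.80, a difference of 0.34 (SE 0.07, limma adjusted p = 0.00449). The groups did not overlap on either. On 1450749_PM_a_at they had 4.90, 4.80 and 4.91 against 5.25, 4.97 and 5.15, a difference of 0.25 (SE 0.08, limma adjusted p = 0.0284). That rise was lost after median centring (adjusted p = 0.118 in limma), repeated quantile normalisation (0.0914) and cyclic loess (0.146). It was also lost without control replicate 1 (adjusted p = 0.0545 in limma) or 2 (0.0919) and without hydrogen replicate 1 (0.0926) or 3 (0.0711). After cyclic loess 1433423_PM_at had 0.20 and was at the threshold (limma adjusted p = 0.0501), and 1433422_PM_at had 0.24. The first and second of these were below the median level, where 32.0% of probe sets were higher. The annotation gives the 2 probe sets named first in this paragraph the same cDNA record, and the 2 ending in a_at the same RefSeq transcript, yet the latter pair moved in opposite directions. The mean of the 5 probe sets had a difference of -0.13 and did not pass (limma adjusted p = 0.0992 over genes). A statement on Nr4a2 as a gene therefore depends on which probe set is read, and probe sequences were not used here.

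Nr4a3, the third receptor of the family, had no probe set that fell. On 1421080_PM_at the controls had 4.87, 4.73 and 4.82 and the hydrogen arrays 5.12, 5.11 and 5.23, without overlap, and the difference was 0.35 (SE 0.06, limma adjusted p = 0.00298). It was 0.25 to 0.38 over the alternatives and passed in each that kept it. The probe sets 1421079_PM_at (0.18, adjusted p = 0.077 in limma) and 1438796_PM_at (0.20, limma adjusted p = 0.138) had overlapping groups and did not pass. Without control replicate 3 the former had 0.24 and passed (limma adjusted p = 0.038), and it also passed with a trend and robust prior variance (0.0389). Its difference was 0.093 after median centring, 0.099 after repeated quantile normalisation and 0.098 after cyclic loess, without passing. The mean of the 3 had 0.24 and passed (limma adjusted p = 0.00567 over genes). With 1 probe set per gene, that with the highest mean, Jun and Nr4a2 were lower and the other 8 genes did not pass, against 52.5% of 17097 genes past the threshold.

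**Figure D4:**
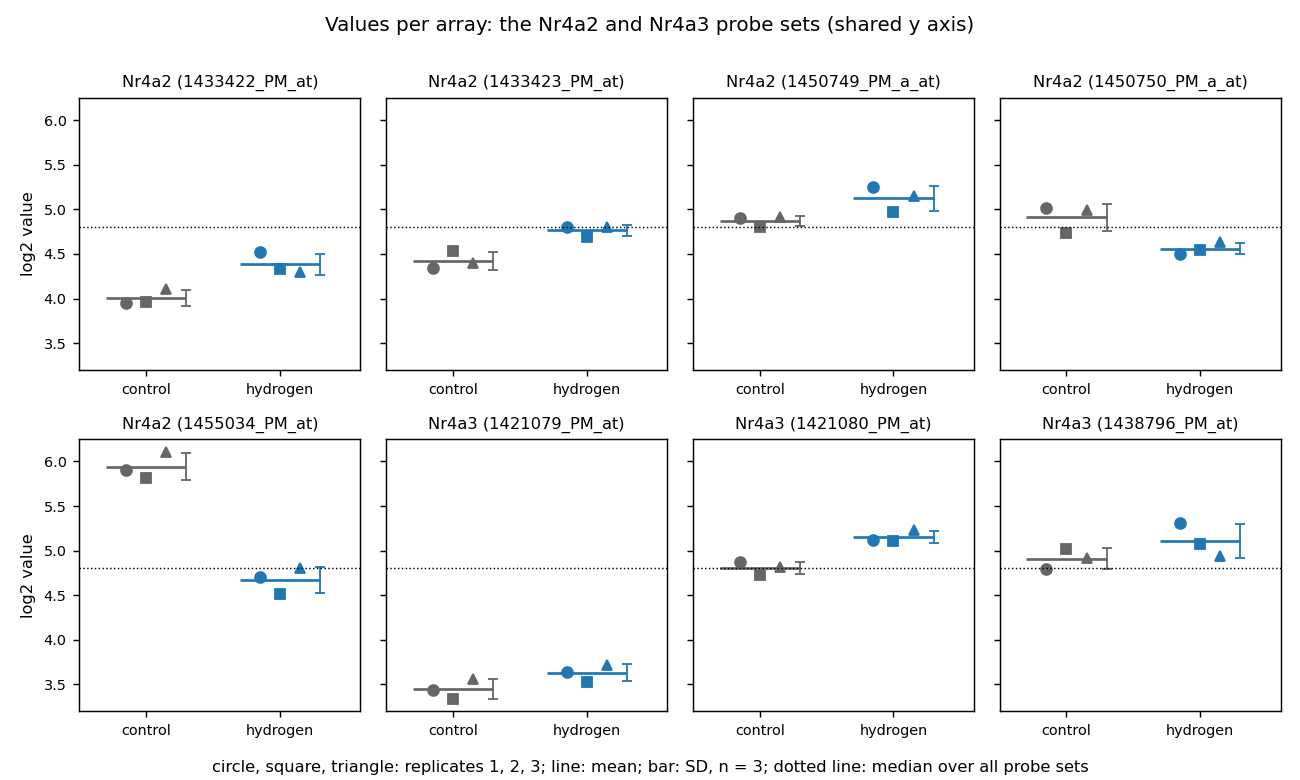
Log2 values of each array for the 5 Nr4a2 and 3 Nr4a3 probe sets on a shared y axis, in controls (grey) and hydrogen arrays (blue), with the group mean (line), SD (bar, n = 3) and the median of all probe sets (dotted line at 4.80). The Nr4a2 probe set 1455034_PM_at drops from near 6 in controls to the dotted line or below it in hydrogen arrays, while 3 other Nr4a2 probe sets and 1421080_PM_at of Nr4a3 are higher in hydrogen arrays.

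Arrays of the same group differed from each other far more in Fos, Egr1 and Nr4a1 than in most probe sets. The pooled SD within groups was 0.51 for Egr1, 0.47 for Fos, 0.45 for Nr4a1 and 0.25 for Ier2, where the median probe set had 0.08. Egr1, Fos and Nr4a1 each lay at percentile 99.8 of all probe sets, and Jun 1448694_PM_at, with 0.04, at percentile 6.84. The order of the arrays was the same for Fos, Egr1, Ier2 and Nr4a1. Among controls replicate 3 was highest and replicate 1 lowest, and among hydrogen arrays replicate 1 was highest and replicate 2 lowest. This order was noticed in the values and then counted: these were 4 of the 17 probe sets, and 2.05% of all probe sets had the same order (1.79% of those above the median level). Control replicate 3 was the highest control on 12 of the 17 probe sets (33.6% of all probe sets), and hydrogen replicate 2 the lowest hydrogen array on 12 of the 17 (28.5% of all). On deviations from the group means, the 4 genes had Pearson r of 0.88 to 0.97 with each other. They were grouped by the order of these same arrays, so a high r among them was largely fixed in advance. Some pairs outside the 4 were as close: Jun with Junb had 0.99, Jun with Nr4a2 0.96 and Junb with Nr4a2 0.95. Jun, Junb and Nr4a2 (probe sets with the highest mean) had 0.94, 0.94 and 0.91 with Ier2 and 0.81, 0.86 and 0.74 with Fos. Fosb and Nr4a3 had 0.64 and 0.18 with Ier2 and 0.45 and 0.47 with Fos. Atf3 differed, with hydrogen replicate 2 as its highest.

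**Figure D5:**
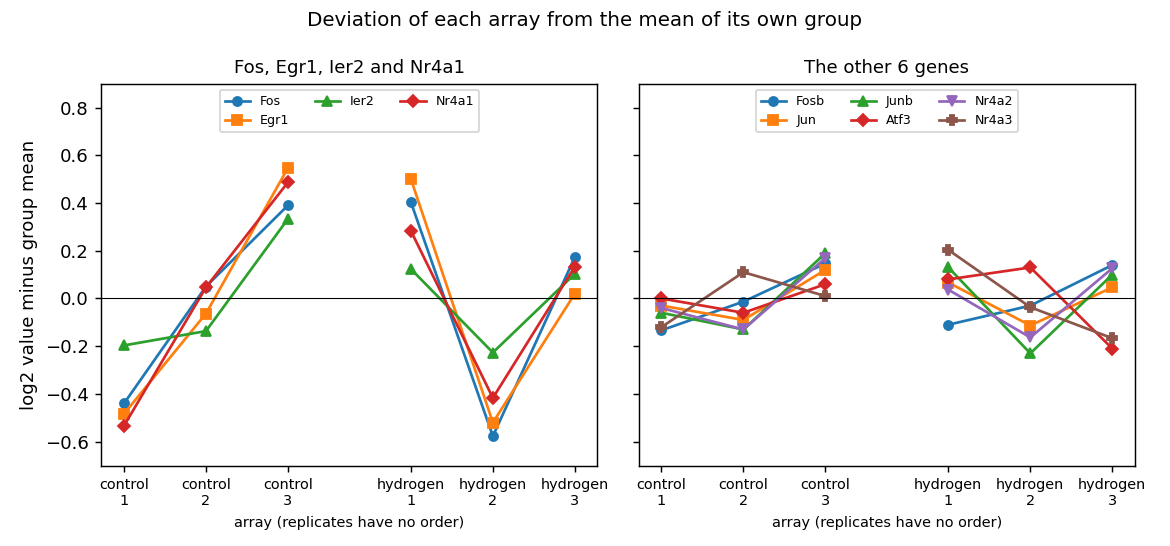
Log2 value of each array minus the mean of its own group, for the probe set with the highest mean of each gene; the lines join values of 1 gene and replicates have no order. Fos, Egr1, Ier2 and Nr4a1 (left) share highs in control replicate 3 and hydrogen replicate 1 and lows in control replicate 1 and hydrogen replicate 2, with ranges of 1.03 and 1.02 for Egr1 in the groups, while the other 6 genes (right) stay between -0.23 and 0.20.

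Few genes of like pattern were found over the 6 arrays. Among 10807 other genes above the median level, those closest to Fos were Chil4 (Pearson r = 0.97 over 6 arrays), Emc8 (0.97) and Lmnb2 (0.97), and 7 genes had r over 0.95. Closest to Egr1 were Cdc37l1 (0.99), Apobr (0.96) and Gpd1 (0.95), and 2 genes had r over 0.95. Closest to Nr4a1 were Lmnb2 (0.99), Scn4b (0.99) and Ms4a8a (0.98), and 15 genes had r over 0.95. Chil4, which encodes a secreted chitinase-like protein, had 8.16, 8.62 and 8.91 in controls and 8.64, 7.93 and 8.53 in hydrogen arrays, close to the order and span of Fos. On deviations from the group means, 56 genes had r over 0.95 with Fos, 61 with Egr1 and 63 with Nr4a1. Closest by this measure were Naxd, C920021L13Rik and Casc3 to Fos, Srd5a3, Tmem171 and Ero1a to Egr1, and Cltb, Mark3 and Slc38a2 to Nr4a1, all with r over 0.99. Pearson r does not depend on the size of the deviations. Naxd had 9.06, 9.08 and 9.09 in controls and 8.68, 8.64 and 8.67 in hydrogen arrays. Srd5a3 had 6.83, 6.85 and 6.87 against 6.66, 6.62 and 6.64. Both spans were far smaller than those of Fos and Egr1. The 6 arrays share their groups and their normalisation, so these values only describe likeness. How many of the 10807 genes would reach such r by chance was not tested.

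Markers of lung cells were present, and those of several cell types moved with the group. The summed linear signal of 3 alveolar type 2 cell markers was 14128 to 14482 in controls and 14162 to 14477 in hydrogen arrays. All 5 heart muscle markers measured fell and were above the median level, with sums of 3190 to 4080 in controls and 497 to 1594 in hydrogen arrays. Of 3 alveolar type 1 cell markers 2 fell, with sums of 9999 to 10383 in controls and 8940 to 9259 in hydrogen arrays. Of 2 smooth muscle markers 1 fell, with sums of 1537 to 1763 against 1065 to 1454. Of 2 T cell markers 1 rose, with sums of 138 to 165 against 177 to 210.5. The sums of these 3 types and of heart muscle did not overlap between the groups. Those of 2 club cell markers, of which 0 passed, did not overlap either (14412.5 to 14798 in controls, 14086 to 14382 in hydrogen arrays). Over the whole array 47.1% of probe sets passed, and 57.3% had groups without overlap. Of 3 endothelial markers 1 fell, with overlapping sums. Of the 2 adipocyte markers listed, 1 was measured and fell, with levels of 154 to 199 in controls and of 150, 10.9 and 24.3 in hydrogen replicates 1, 2 and 3. Hydrogen replicate 2, the lowest hydrogen array in Fos, Egr1, Ier2 and Nr4a1, also had the lowest heart sum (497), and replicate 1 the highest (1594). In controls the order differed: replicate 1, the lowest in these 4 genes, had the highest heart sum (4080). The 2 neutrophil markers did not pass and had sums of 664 to 1036 in controls and 987 to 1498 in hydrogen arrays. The difference between 3′ and 5′ control probe sets is a sign of RNA integrity and labelling. For Gapdh it was 0.77 to 1.14 in controls and 0.90 to 1.31 in hydrogen arrays. It was highest in hydrogen replicate 2 and lowest in control replicate 1. That for beta-actin was 1.3 to 1.51 in controls and 1.31 to 1.55 in hydrogen arrays, highest in hydrogen replicate 3. That for the transferrin receptor was 0.51 to 0.67 in controls and 0.57 to 0.76 in hydrogen arrays, of which replicate 2 was lowest. That for pyruvate carboxylase was 2.27 to 2.42 in controls and 1.33 to 1.59 in hydrogen arrays. The part of these differences in the results on Jun, Nr4a2 and Nr4a3 was not tested, and in whole lung a smaller number of cells of a type and less RNA per cell cannot be told apart.

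The regulators and relatives of these genes, taken from 7 lists with 72 genes of which 65 were measured, moved in both directions. Of their 111 probe sets, 23 were higher and 32 lower, with a median difference of -0.09, where 24.3% of all probe sets were higher and 22.8% lower. By the probe set with the highest mean, 11 of the 65 genes rose and 21 fell, where 52.5% of 17097 genes with 1 probe set each passed in either direction. These shares are near each other. Of the 32 lower probe sets 30 were above the median level, where 38.2% of all probe sets fell. Repeated quantile normalisation gave 26 higher and 11 lower, and cyclic loess 24 and 15, so the number of falls depended on the scaling. In the list of AP-1 relatives, 1 of 10 genes rose and 5 fell by their probe set with the highest mean (median over its 13 probe sets -0.02), against 52.5% of all genes past the threshold. The falls included Jdp2 (-0.46), a repressor of AP-1, Maff (-0.37), a small MAF protein gene, and Fosl2 (-0.28), while Batf3 (0.23), a factor of dendritic cells, rose. The fall of Fosl2 was -0.06 after repeated quantile normalisation and -0.08 after cyclic loess, without passing, and its second probe set rose. The fall of Maff did not pass after either, nor with replicate number as a block. It also did not pass when control replicate 2 or 3, or hydrogen replicate 1 or 3, was left out. The fall of Jdp2 did not pass after repeated quantile normalisation. The rise of Batf3 did not pass after median centring, nor when control replicate 1 or 2, or hydrogen replicate 1, was left out.

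Unlike Egr1, its 3 relatives rose by their probe set with the highest mean. They were among the 5 genes of the list of EGR relatives and corepressors, of which 3 rose and 0 fell (52.5% of all genes passed). Of the 8 probe sets of this list 3 were higher, with a median difference of -0.01 over the list. Egr2 and Egr4 were at or below the median level, where 32.0% of all probe sets were higher. Egr4 had log2 values of 3.57, 3.36 and 3.42 in controls and 3.98, 4.13 and 4.13 in hydrogen arrays (difference 0.63, SE 0.07, limma adjusted p = 0.000574). Egr3 had 4.80, 4.84 and 4.81 against 5.37, 5.40 and 5.35 (difference 0.56, SE 0.05, limma adjusted p = 0.000293). Egr2 had 4.50, 4.50 and 4.73 against 4.97, 5.02 and 4.88 (difference 0.38, SE 0.08, limma adjusted p = 0.00505). Their groups did not overlap, their control means were close to or below the median level, and all 3 passed in each alternative that kept them. Whether these differences differ from that of Egr1 was not tested. The EGR corepressor genes Nab1 (-0.12) and Nab2 (-0.09) did not pass.

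Of the 28 measured genes in the list of other primary response genes, 4 rose and 10 fell by their probe set with the highest mean (median over 36 probe sets -0.25), a share near the 52.5% of all genes. All 14 lower probe sets of this list were above the median level, where 38.2% of all fell. Dusp1, a phosphatase that switches off MAP kinases, had 10.47, 10.73 and 11.07 in controls and 10.20, 9.50 and 10.28 in hydrogen arrays (difference -0.76, SE 0.21, limma adjusted p = 0.0191). Control replicate 3 was its highest control and hydrogen replicate 2 its lowest array, as for Fos and Nr4a1, but its groups did not overlap. Its call was lost without control replicate 2 (adjusted p = 0.0517 in limma) or 3 (0.0583) and with a trend and robust fitting of the prior variance (0.0929). Gadd45g (-0.68), a growth arrest gene, and Nfkbia (-0.57), which encodes the inhibitor of NF-kappaB, fell as well. The MAP kinase phosphatase gene Dusp2 (0.52), Arc (0.44), a gene of neuronal activity, and the kinase gene Plk2 (0.31) rose. Arc was at or below the median level, where 32.0% of all probe sets were higher, and it had 0.30 after cyclic loess and did not pass. Plk2 did not pass after median centring, without control replicate 1 or 2 or without hydrogen replicate 2.

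Of the regulators, Srf, which encodes serum response factor, fell by 0.32 on its probe set with the highest mean, while its second probe set rose by 0.60. The former did not pass after repeated quantile normalisation or cyclic loess, nor when control replicate 2 or 3, or hydrogen replicate 2 or 3, was left out. By that probe set the other genes of the 5 measured in that list did not pass, where 52.5% of all genes passed. Of all 12 probe sets of the list 2 rose and 1 fell, where 24.3% of all probe sets were higher and 22.8% lower. In the CREB list 2 of 7 genes rose and 2 fell by the same rule (52.5% of all genes passed), with Crebbp (-0.48), the coactivator of CREB, and Atf1 (-0.34) lower and Crem (0.30) and Crtc1 (0.28) higher. Of all 22 probe sets of the MAP kinase list 3 rose and 7 fell, against the same 24.3% and 22.8%. Of the 7 falls 6 were above the median level, where 38.2% of all probe sets fell. By their probe set with the highest mean, 3 of its 7 measured genes fell and the others did not pass, where 52.5% of all genes passed. The 3 genes were Rps6ka5 (-0.59), a kinase of histone H3 and CREB, Mapk9 (-0.41), which encodes a JUN kinase, and Map2k2 (-0.29). Of these, Crebbp, Crtc1 and Rps6ka5 passed in all alternatives. Atf1, Mapk9 and Map2k2 did not pass after repeated quantile normalisation or cyclic loess. Crem passed in 7 of 14 alternatives. Of the retinoid X receptor genes Rxrg (0.33) rose, without passing after repeated quantile normalisation or cyclic loess, while Rxra (-0.01) and Rxrb (-0.09) did not pass. Crem and Rxrg were at or below the median level, where 32.0% of all probe sets were higher. Among the 65 genes, Jund, Fosl2, Trib1, Srf, Creb1 and Mapk14 had probe sets past the threshold in both directions.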

How the data were processed

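Lung RNA gave 3 control and 3 hydrogen arrays (GeneAtlas strips), per the labels' protocols. The deposited log2 values, to 2 decimals, were made by the authors with RMA in Affymetrix Expression Console, per the submitters' processing notes, with versions not given in the sources used here. Array medians were 4.75 to 4.76 in controls and 4.84 to 4.85 in hydrogen arrays. No further normalisation or filter was applied. Of all probe sets, 104 control probe sets were left out. The test was limma's lmFit and eBayes (version 3.58.1, under R 4.3.3) with Benjamini-Hochberg adjustment over 45037 probe sets, or over 17097 genes where stated, with differences as hydrogen minus control. The script was tested on simulated data. An exact two-sided permutation of 3 against 3 arrays cannot give p below 0.1.

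The 10 genes and the 7 related lists were chosen with earlier results of these data known. Named from the lists were up to 3 genes per direction with the largest difference past the threshold. Alternatives were a replicate block, median centring, quantile normalisation, cyclic loess, array weights, a trend with robust fitting, leaving out dim probe sets or single arrays, 1 probe set per gene and control probe sets in the adjustment. Averaging a gene's probe sets was added after the data were seen. Same-numbered arrays were not paired by any label. Summed marker levels are sums of 2 to the power of the log2 value. Plots used matplotlib 3.10.9 (Python 3.11.15).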

Additional observations from a re-analysis of the deposited data

How the results depend on the processing

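Of 243 alternative values of the 17 probe sets, 214 kept their direction and side of the threshold, 12 newly passed, 8 no longer passed and 9 changed sign, the last all in Egr1 and Ier2, which never passed. Egr1 was 0.18 after repeated quantile normalisation and 0.17 after cyclic loess, and -0.27 to 0.25 without single arrays. Ier2 was -0.07 after median centring and -0.078 to 0.19 without single arrays.

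The count of the 17 probe sets that were higher, 4 in the main setting, was 7 with a replicate block, 2 after cyclic loess and 2 without dim probe sets (12 kept), and 3 to 7 without single arrays, with 7 without control replicate 3. The count of those that were lower, 4, was 4 or 5 without single arrays. With 1 probe set per gene 2 of 10 genes were lower and 0 higher in limma (1 higher at an unadjusted p under 0.05). With the mean of all probe sets 1 was lower (Jun) and 1 higher (Nr4a3). Over all probe sets, 10956 were higher and 10257 lower in the main setting. The higher count was 6377 after median centring, 3663 without dim probe sets and 4454 with 1 probe set per gene, where 4516 were lower. Of the 111 related probe sets, 49 were lower after median centring, 11 after repeated quantile normalisation, 15 after cyclic loess and 21 with 1 probe set per gene, where 11 were higher, and 10 were higher without dim probe sets.

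Deviations of same-numbered arrays from their group means correlated at r = 0.08, 0.03 and -0.11. Those of differently numbered arrays correlated at -0.14 to 0.11. With 3 arrays in each group, these values cannot show whether the numbers pair the arrays. With the replicate block the higher calls among the 17 went from 4 to 7, adding Fosb (limma adjusted p = 0.0176), Junb (0.046) and Nr4a3 1421079_PM_at (0.0402), and Maff lost its call (0.0538). Low signal limits the probe sets near the median level.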

Other observations

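Other related genes with a wide spread within groups included Klf2, Klf4, Ccn1 and Ccn2, named after their values were seen. Dusp6 and Gadd45g, each with a pooled SD of 0.26, spread about as widely as Ccn2 (0.27). Klf2, a transcription factor gene of endothelium that responds to blood flow, had log2 values of 8.61, 9.16 and 9.55 in controls and 8.39, 8.41 and 8.88 in hydrogen arrays, with a pooled SD of 0.39. Its difference of -0.55 did not pass (limma adjusted p = 0.0733). Klf4 had 9.34, 9.74 and 9.99 against 9.22, 9.14 and 9.50, a difference of -0.40 that did not pass (limma adjusted p = 0.0647). In both, control replicate 3 was the highest control and control replicate 1 the lowest, as for Fos, Egr1, Ier2 and Nr4a1, while among hydrogen arrays replicate 3 was the highest. Ccn1 had the same order of controls and also hydrogen replicate 3 highest. Its difference of -0.54 passed, though its groups overlapped (limma adjusted p = 0.0274). In Ccn2 control replicate 2 was the highest control, and the difference of -0.30 did not pass (limma adjusted p = 0.150). Of the 111 related probe sets, 4 had the full order of those 4 genes.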
